A study of Mus musculus with 8 samples.

Results

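*Srebf1* and the enzymes of de novo lipogenesis were examined in the livers of mice with and without hepatocyte *Rbfox2*. The members are *Srebf1*, *Fasn*, *Acaca*, *Acacb*, *Acly*, *Scd1*, *Elovl6*, *Me1*, *Thrsp* and *Pnpla3*, found by their symbols in the GRCm38 annotation, and all 10 were among the 46078 gene rows of the deposited counts. Of these, 9 had enough counts to be tested among 13856 genes, and *Pnpla3* did not. LWT mice carried *Rbfox2* LoxP/LoxP alleles without Alb_cre, and LΔRbfox2 mice carried the same alleles with Alb_cre, a recombinase driven by the albumin promoter. The cross was designed to delete the gene in hepatocytes, and deletion in other liver cells was not examined here. Both groups ate the control diet, which the treatment label calls chow, for 12 weeks by the labels, and were fasted before the liver was taken, for a time that the labels do not give. The methods of the study give a longer time on its diets, and which applies to these livers was not settled here. There were 4 livers of each genotype and 1 library per liver. Nothing in the sources used here says whether the animals shared litters or cages, so *P* values measure the spread between these livers.

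De novo lipogenesis turns citrate from carbohydrate into fatty acids in the cytosol. SREBP-1, the product of *Srebf1*, is made as a precursor in the endoplasmic reticulum membrane, is carried to the Golgi by SCAP, is cleaved there by MBTPS1 and MBTPS2, and enters the nucleus, where it activates the genes of the pathway. In liver the pathway is known to rise with insulin and feeding and to be low in fasting, the state in which these livers were taken.

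The data are RNA-seq counts of poly(A) RNA, as deposited by the authors, with total counts of 37482458 to 56177588 per liver. They were scaled with TMM factors (a per-library factor from edgeR) to CPM (counts relative to the size of the library), and 3 counts equal 0.0534 to 0.0800 CPM. The TMM factor was 0.724 in LΔRbfox2 liver 3 and 0.776 in LΔRbfox2 liver 4, against 1.02 to 1.14 in the other 6 livers. *Mup* genes took 21.4% to 43.6% of the counts. *Rbfox2* itself was at 10.4 to 18.3 CPM in LWT livers and at 2.24 to 6.09 CPM in LΔRbfox2 livers, without overlap. *Alb*, which marks hepatocytes, was at 32478 to 55318 CPM. The adipocyte markers *Adipoq*, *Lep*, *Plin1*, *Retn* and *Adig* had 0 to 3 counts in every liver, and *Cfd*, the 6th of that list, had 2 to 105. Of 5 markers of pancreatic acinar cells, *Prss2*, *Cpa1* and *Ctrb1* had 0 counts in every liver, *Pnlip* had at most 1, and *Cela1* was at 3.04 to 9.85 CPM. Those of skeletal muscle had at most 1 count.

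Promoter windows of the 5 genes that later appear together in the correlations are shown here, as RefSeq gives them on GRCm38.p6. Each runs from 250 bases before a transcription start to 50 bases after it, read 5′ to 3′ on the strand of the gene. Windows were found for 9 of the 10 members, 12 windows in all, and none for *Scd1*. The *Srebf1* windows are at chr11:60222532-60222831, chr11:60220578-60220877 and chr11:60210422-60210721, all on the minus strand, and the counts per gene do not separate these starts. *Fasn* is at chr11:120824498-120824797 (minus), *Acaca* at chr11:84195188-84195487 (plus), *Acacb* at chr5:114165268-114165567 (plus) and *Acly* at chr11:100527951-100528250 (minus). In the GRCm38 annotation *Acaca* begins at chr11:84129672 and *Acacb* at chr5:114146535, so the windows of both lie inside the genes. Starts further upstream in these genes were not searched. The capitals mark CCAAT on either strand, the box that NF-Y binds, and in *Fasn* a box on each strand overlap.
Srebf1 start 1: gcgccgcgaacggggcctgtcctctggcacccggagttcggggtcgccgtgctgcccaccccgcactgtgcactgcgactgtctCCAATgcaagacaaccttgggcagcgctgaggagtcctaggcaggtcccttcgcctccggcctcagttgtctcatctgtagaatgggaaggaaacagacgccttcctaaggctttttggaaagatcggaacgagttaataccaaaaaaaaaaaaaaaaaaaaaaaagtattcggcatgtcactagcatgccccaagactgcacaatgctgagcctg
Srebf1 start 2: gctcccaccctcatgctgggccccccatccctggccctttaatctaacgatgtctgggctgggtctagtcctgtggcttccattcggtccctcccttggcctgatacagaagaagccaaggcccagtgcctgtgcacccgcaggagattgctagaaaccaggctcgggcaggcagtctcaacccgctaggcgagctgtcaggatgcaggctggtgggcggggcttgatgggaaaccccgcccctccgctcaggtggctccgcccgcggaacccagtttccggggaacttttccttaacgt
Srebf1 start 3: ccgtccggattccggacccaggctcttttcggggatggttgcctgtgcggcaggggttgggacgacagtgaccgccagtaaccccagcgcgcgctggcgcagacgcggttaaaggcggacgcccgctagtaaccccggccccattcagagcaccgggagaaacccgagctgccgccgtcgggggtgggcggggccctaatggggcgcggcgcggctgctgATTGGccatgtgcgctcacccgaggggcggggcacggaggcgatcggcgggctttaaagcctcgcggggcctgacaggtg
Fasn: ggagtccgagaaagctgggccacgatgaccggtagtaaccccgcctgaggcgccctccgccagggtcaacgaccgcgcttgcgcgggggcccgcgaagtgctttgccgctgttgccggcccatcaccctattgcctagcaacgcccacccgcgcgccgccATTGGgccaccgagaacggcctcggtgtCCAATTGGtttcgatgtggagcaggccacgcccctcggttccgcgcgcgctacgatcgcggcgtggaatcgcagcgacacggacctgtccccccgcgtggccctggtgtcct
Acaca: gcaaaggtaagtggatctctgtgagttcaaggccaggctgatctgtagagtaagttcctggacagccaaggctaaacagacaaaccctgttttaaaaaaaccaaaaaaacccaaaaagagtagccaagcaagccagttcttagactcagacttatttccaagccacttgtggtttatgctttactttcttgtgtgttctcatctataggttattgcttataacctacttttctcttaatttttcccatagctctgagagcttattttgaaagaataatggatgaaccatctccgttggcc
Acacb: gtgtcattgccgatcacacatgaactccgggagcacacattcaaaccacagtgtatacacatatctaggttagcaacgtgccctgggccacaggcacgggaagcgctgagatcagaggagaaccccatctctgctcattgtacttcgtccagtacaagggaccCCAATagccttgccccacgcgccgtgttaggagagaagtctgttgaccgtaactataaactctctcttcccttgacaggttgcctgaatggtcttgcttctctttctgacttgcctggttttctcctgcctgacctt
Acly: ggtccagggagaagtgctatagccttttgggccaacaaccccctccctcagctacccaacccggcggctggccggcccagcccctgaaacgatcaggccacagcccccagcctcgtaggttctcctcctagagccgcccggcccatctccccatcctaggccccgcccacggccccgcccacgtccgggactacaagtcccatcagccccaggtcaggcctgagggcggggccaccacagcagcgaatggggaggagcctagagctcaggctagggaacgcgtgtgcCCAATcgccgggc

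The CCAAT box was in 8 of the 12 windows, which belong to 7 of the 9 genes, and in 37.4% of all 32851 promoter windows of the same length. *Fasn* held 3 such boxes, which start 90, 62 and 59 bases before its transcription start. GGGCGG, on either strand, was in 5 of the 12 windows and in 35.7% of all windows. TATAAA was found in 1 of the 12, that of *Acacb*, which lies inside the gene, against 13.6% of all. CACGTG, an E-box, was in 0 of the 12 windows and in 7.15% of all, and TCACNCCAC, a spelling of the sterol regulatory element, was in 0 of the 12 and in 1.24% of all. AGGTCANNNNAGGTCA, a strict spelling of the direct repeat that liver X receptors bind, was in 0 of the 12 and in 0.0152% of all. Looser spellings of these elements were not searched, so a 0 does not show that an element is absent. A match is a run of letters in this window and was not tested as a site.

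Per exon length, the desaturase gene *Scd1* was by far the most abundant member. In LWT livers its level was 355 ± 94.1 FPKM (TMM-scaled CPM per kilobase of exon; SD, n = 4), and *Me1* followed at 23.0 ± 6.54 FPKM and *Acly* at 8.70 ± 2.39 FPKM. *Srebf1* was at 4.52 ± 3.61 FPKM, *Elovl6* at 2.90 ± 0.254, *Fasn* at 2.83 ± 1.86, *Thrsp* at 2.68 ± 1.27, *Acacb* at 2.12 ± 0.830 and *Acaca* at 1.28 ± 0.400 FPKM. *Pnpla3* was lowest, at 0.103 ± 0.0457 FPKM. *Scd1*, *Me1* and *Pnpla3* stood apart from their neighbours in this order by more than the summed SDs, while the levels from *Acly* down to *Acaca* did not differ from their neighbours beyond that spread. With the length of the longest transcript in place of all exons, *Acaca* stood at 2.30 FPKM and *Thrsp* at 4.19 FPKM.

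**Figure D1:**
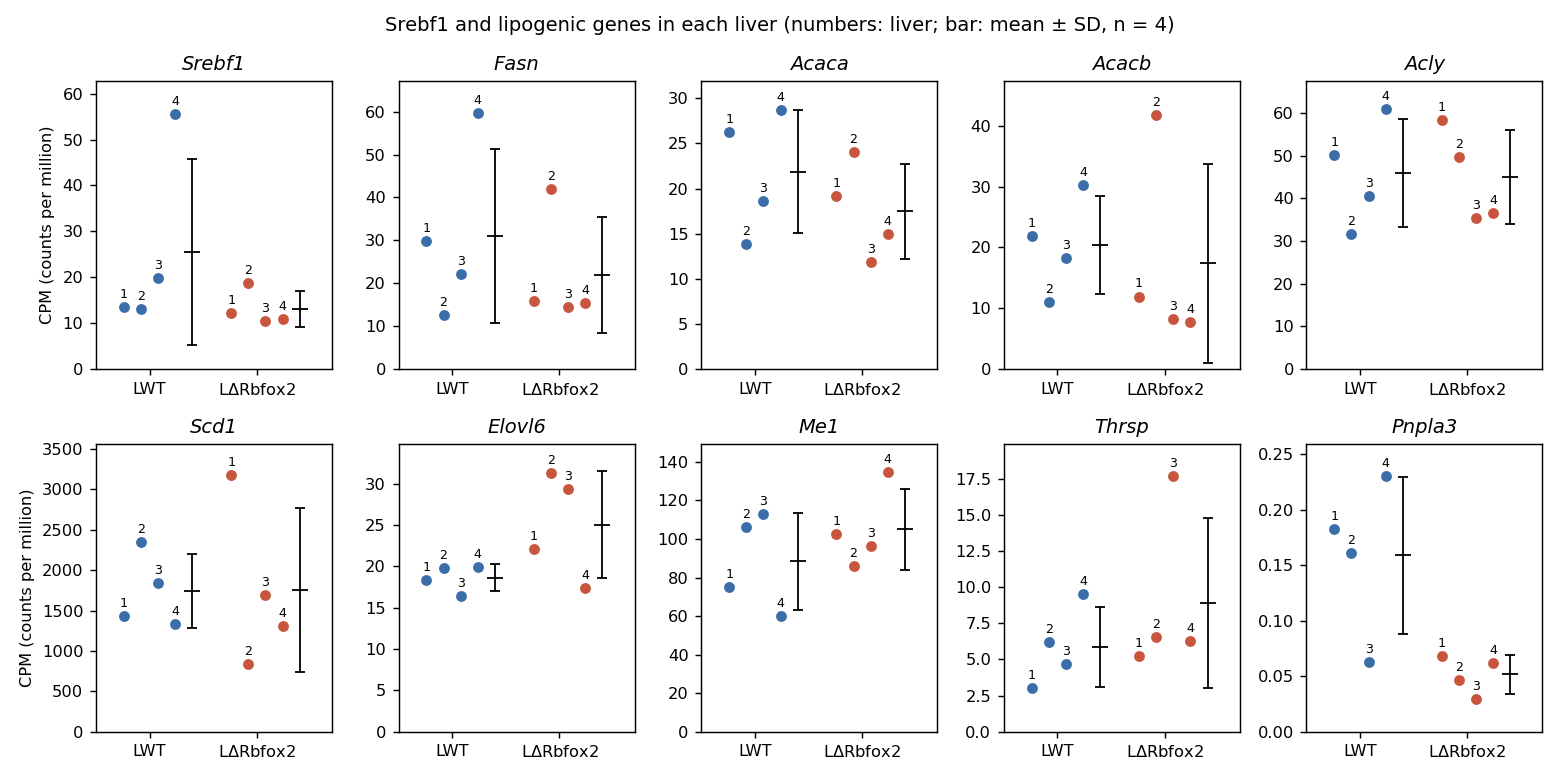
CPM of each of the 10 genes (vertical axis, from 0) in 4 LWT and 4 LΔRbfox2 livers, with the number of each liver beside its point and the mean ± SD as a bar. LWT liver 4 was highest for *Srebf1* (55.6 CPM) and *Fasn* (59.6 CPM), LΔRbfox2 liver 2 was highest for *Acacb* (41.9 CPM), and the genotypes overlapped for every gene.

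The genotypes were compared to ask whether loss of hepatocyte *Rbfox2* goes with a change in the mRNAs of the pathway. None of the 9 tested members passed an adjusted *P* of 0.05, as none of all 13856 genes did (0%, edgeR quasi-likelihood test with Benjamini-Hochberg adjustment over all genes). The smallest adjusted *P* of all genes was 0.504 (edgeR), so *Rbfox2* itself, the deleted gene, was not called. That no member passed therefore does not show that the members were unchanged. At an unadjusted *P* under 0.05 there were 0 members, where 9.79% of all genes were under it (1102 genes higher and 254 lower in LΔRbfox2 livers, or 829 and 338 with upper-quartile factors). The balance moved further in other settings, to 695 higher and 368 lower after GC content and length correction, 180 and 203 when the replicate block was added to that correction, and 82 and 89 without LΔRbfox2 livers 3 and 4. For 0 of the 9 tested members did the genotypes fail to overlap, against 2.28% of all genes (1.05% higher and 1.23% lower in LΔRbfox2 livers). DESeq2 called 10 genes of the whole table and limma-voom 0, and in both 0 members were called. The log2 fold change was below 0 for 5 members and above 0 for 4, with a median of −0.026, and it was below 0 for 51.6% of all genes, with a median of −0.015. In whole liver, fewer cells of a type and less RNA per cell cannot be told apart.

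*Srebf1* (ENSMUSG00000020538, chr11:60199089-60222581, minus strand of GRCm38) was at 13.4, 13.0, 19.8 and 55.6 CPM in LWT livers 1 to 4, and at 12.3, 18.7, 10.4 and 10.9 CPM in LΔRbfox2 livers 1 to 4. LWT liver 4 stood above all others, and the remaining 3 LWT livers lay within or just above the range of the LΔRbfox2 livers. The LΔRbfox2 mean, 13.1 ± 3.84 CPM (SD, n = 4), was 51.4% of the LWT mean of 25.4 ± 20.3 CPM (SD, n = 4). The log2 fold change was −0.96 (edgeR, unadjusted *P* = 0.0607, adjusted *P* = 0.511; two-sided exact permutation test of log2 CPM, *P* = 0.171, where 4 livers against 4 allow 0.0286 at the lowest). With limma-voom it was −0.70, with a standard error of 0.44 and a 95% interval of −1.68 to 0.27. Without LWT liver 4 the log2 fold change was −0.23 (edgeR, adjusted *P* = 0.901), so the size of the difference rests on that liver. Without it and LΔRbfox2 liver 2, an alternative added after seeing the data, it was −0.46 (edgeR, adjusted *P* = 0.348). The log2 fold change was −1.19 without LWT liver 1, −1.17 without LWT liver 2 and −1.18 without LΔRbfox2 liver 2 (edgeR, unadjusted *P* = 0.0265, 0.0244 and 0.0369, adjusted *P* = 0.851, 0.239 and 0.180). Of the exon bases of *Srebf1*, 3.11% overlap another annotated gene.

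Among the genes that supply substrate, *Acly*, which splits cytosolic citrate into acetyl-CoA, was at 50.2, 31.7, 40.7 and 61.1 CPM in LWT livers and at 58.4, 49.8, 35.5 and 36.6 CPM in LΔRbfox2 livers. The ranges nearly coincided, and the log2 fold change was −0.026 (edgeR, adjusted *P* = 0.966), with a 95% interval of −0.57 to 0.53 from limma-voom. *Me1*, the cytosolic malic enzyme that yields NADPH, was at 75.1, 106, 113 and 60.0 CPM in LWT livers and at 103, 86.0, 96.2 and 135 CPM in LΔRbfox2 livers. Its lowest liver was LWT liver 4, where *Srebf1*, *Fasn*, *Acaca* and *Acly* were highest. The log2 fold change of *Me1* was 0.24 (edgeR, adjusted *P* = 0.657), and with a liver left out it ranged from 0.098 (without LWT liver 4) to 0.39 (without LWT liver 3).

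The acetyl-CoA carboxylases make malonyl-CoA, the product of *Acaca* for fatty acid synthesis and that of *Acacb* next to mitochondria, where malonyl-CoA restrains fatty acid uptake for oxidation. *Acaca* was at 26.3, 13.9, 18.6 and 28.7 CPM in LWT livers and at 19.1, 24.03, 11.8 and 14.95 CPM in LΔRbfox2 livers, a log2 fold change of −0.32 (edgeR, adjusted *P* = 0.636). For *Acaca* this was −0.16 without LWT liver 4, −0.51 without LΔRbfox2 liver 2 and −0.031 after GC content and length correction. *Acacb* was at 21.9, 11.05, 18.3 and 30.3 CPM in LWT livers and at 11.9, 41.9, 8.20 and 7.74 CPM in LΔRbfox2 livers. For *Acacb* the highest and the lowest of all 8 livers were thus both LΔRbfox2 livers. The log2 fold change of *Acacb* was −0.22 (edgeR, adjusted *P* = 0.862), and without LΔRbfox2 liver 2 it was −1.13 (edgeR, adjusted *P* = 0.0982), while without LWT liver 4 it was 0.032 (edgeR, adjusted *P* = 0.992). After GC content and length correction *Acacb* was at −0.010.

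*Fasn*, the synthase that assembles palmitate, was at 29.8, 12.51, 22.2 and 59.6 CPM in LWT livers and at 15.7, 42.1, 14.4 and 15.3 CPM in LΔRbfox2 livers. Each genotype had a single liver well above the rest, LWT liver 4 and LΔRbfox2 liver 2. The means were 31.0 ± 20.3 and 21.9 ± 13.5 CPM (SD, n = 4 each), with a log2 fold change of −0.50 (edgeR, adjusted *P* = 0.662; exact permutation test, *P* = 0.486). The log2 fold change of *Fasn* was 0.028 without LWT liver 4 and −1.04 without LΔRbfox2 liver 2 (edgeR, adjusted *P* = 0.989 and 0.188), and −0.10 after GC content and length correction.

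Downstream of the synthase, *Elovl6*, which lengthens palmitate, was the member with the least spread among LWT livers, at 18.3, 19.8, 16.5 and 19.96 CPM. In LΔRbfox2 livers *Elovl6* was at 22.1, 31.4, 29.3 and 17.4 CPM, so that 3 of these 4 livers were above every LWT liver and liver 4 was not. Its log2 fold change was 0.43 (edgeR, unadjusted *P* = 0.0633, adjusted *P* = 0.511; exact permutation test, *P* = 0.143), with a 95% interval of −0.066 to 0.86 from limma-voom. *Scd1*, the desaturase that makes oleate, was at 1429, 2343, 1844 and 1335 CPM in LWT livers and at 3180, 838.4, 1689 and 1306 CPM in LΔRbfox2 livers. The spread of *Scd1* among LΔRbfox2 livers took in all LWT livers, and the log2 fold change was 0.013 (edgeR, adjusted *P* = 0.988), with a 95% interval of −0.94 to 0.71 from limma-voom, whose estimate was −0.11.

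*Thrsp*, the thyroid hormone responsive gene whose product promotes lipogenesis, was at 3.03, 6.21, 4.66 and 9.56 CPM in LWT livers and at 5.21, 6.54, 17.7 and 6.29 CPM in LΔRbfox2 livers. LΔRbfox2 liver 3, which had the highest *Thrsp*, had the lowest *Srebf1* and *Acaca*. The log2 fold change of *Thrsp* was 0.61 (edgeR, adjusted *P* = 0.591), and 0.013 without LΔRbfox2 liver 3 (edgeR, adjusted *P* = 0.997). *Pnpla3*, which encodes a lipid droplet protein and is a known SREBP-1 target, had 7, 8, 3 and 10 counts in LWT livers and 3, 3, 1 and 2 counts in LΔRbfox2 livers. The sums of 28 and 9 counts were under the filter on low counts (at least 10 in enough livers). With no filter the log2 fold change of *Pnpla3* was −1.59 (edgeR, unadjusted *P* = 0.0303, adjusted *P* = 0.624 over 23766 genes), and 6.78% of its exon bases overlap other annotated genes.

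**Figure D2:**
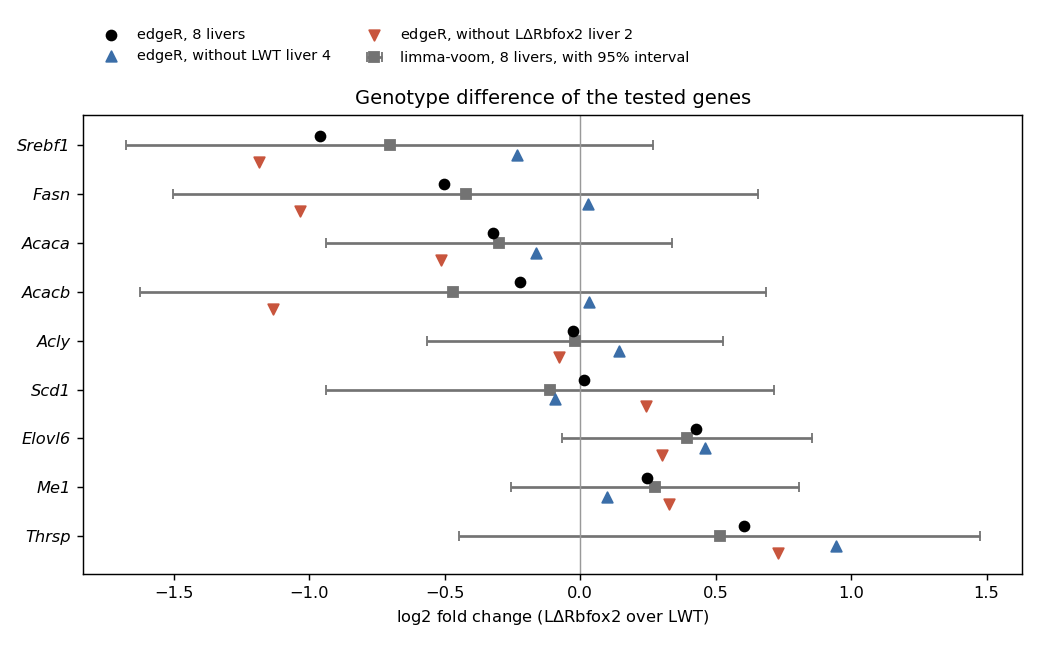
Log2 fold change (LΔRbfox2 over LWT, horizontal axis) of the 9 tested genes from edgeR on all livers, on all but LWT liver 4 and on all but LΔRbfox2 liver 2, beside the limma-voom estimate with its 95% interval. Every interval crosses 0, and the estimate of *Srebf1* moves from −0.96 to −0.23 when LWT liver 4 is left out.

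Across the 8 livers, *Srebf1* had its closest relation with *Fasn*. Pearson's *r* of log2 CPM was 0.84 (two-sided exact permutation test over 40320 pairings, *P* = 0.00784) and Spearman's rho was 0.79 (exact permutation test, *P* = 0.0279). After Benjamini-Hochberg adjustment over the 8 relations of *Srebf1* with the other tested members, these exact permutation *P* values were 0.0627 and 0.112, so that 0 of the 8 passed 0.05. At an unadjusted exact *P* under 0.05 there were 4 relations, with *Fasn*, *Acaca*, *Acacb* and *Me1*. LWT livers 3 and 4 were farthest from the median of *Srebf1*. Without them *r* with *Fasn* was 0.83, and without LWT liver 4 alone it was 0.70. With the genotype means removed it was 0.84. Of all other tested genes, 6.91% had an *r* of at least 0.7 with *Srebf1*, and of the 8 members 1 had. An *r* of at most −0.7 was found for 8.99% of genes and for 1 of the 8 members, *Me1*.

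The relation of *Srebf1* with *Acaca* had an *r* of 0.697 and a rho of 0.74 (exact permutation test, adjusted *P* = 0.0852 and 0.122). This *r* was 0.72 without LWT livers 3 and 4 and 0.59 without LWT liver 4 alone. With *Acacb*, *r* was 0.696 and rho 0.83 (exact permutation test, adjusted *P* = 0.0852 and 0.112). In the same 2 settings *r* with *Acacb* was 0.95 and 0.82. With *Acly*, *r* was 0.58 and rho 0.55 (exact permutation test, adjusted *P* = 0.161 and 0.342). This *r* was 0.44 without LWT livers 3 and 4 and 0.28 without LWT liver 4 alone. *Me1* ran opposite to *Srebf1*, with an *r* of −0.72 and a rho of −0.43 (exact permutation test, adjusted *P* = 0.0985 and 0.479). Without LWT livers 3 and 4 this *r* was −0.54, and without LWT liver 4 alone it was −0.22, so the relation rests on that liver. *Scd1* (*r* = −0.31, rho = −0.21), *Elovl6* (*r* = −0.11, rho = −0.17) and *Thrsp* (*r* = 0.098, rho = −0.19) had exact permutation adjusted *P* values of 0.562, 0.803 and 0.803 for *r* and of 0.703 each for rho. Without the same livers their *r* was −0.52, 0.40 and −0.38.

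**Figure D3:**
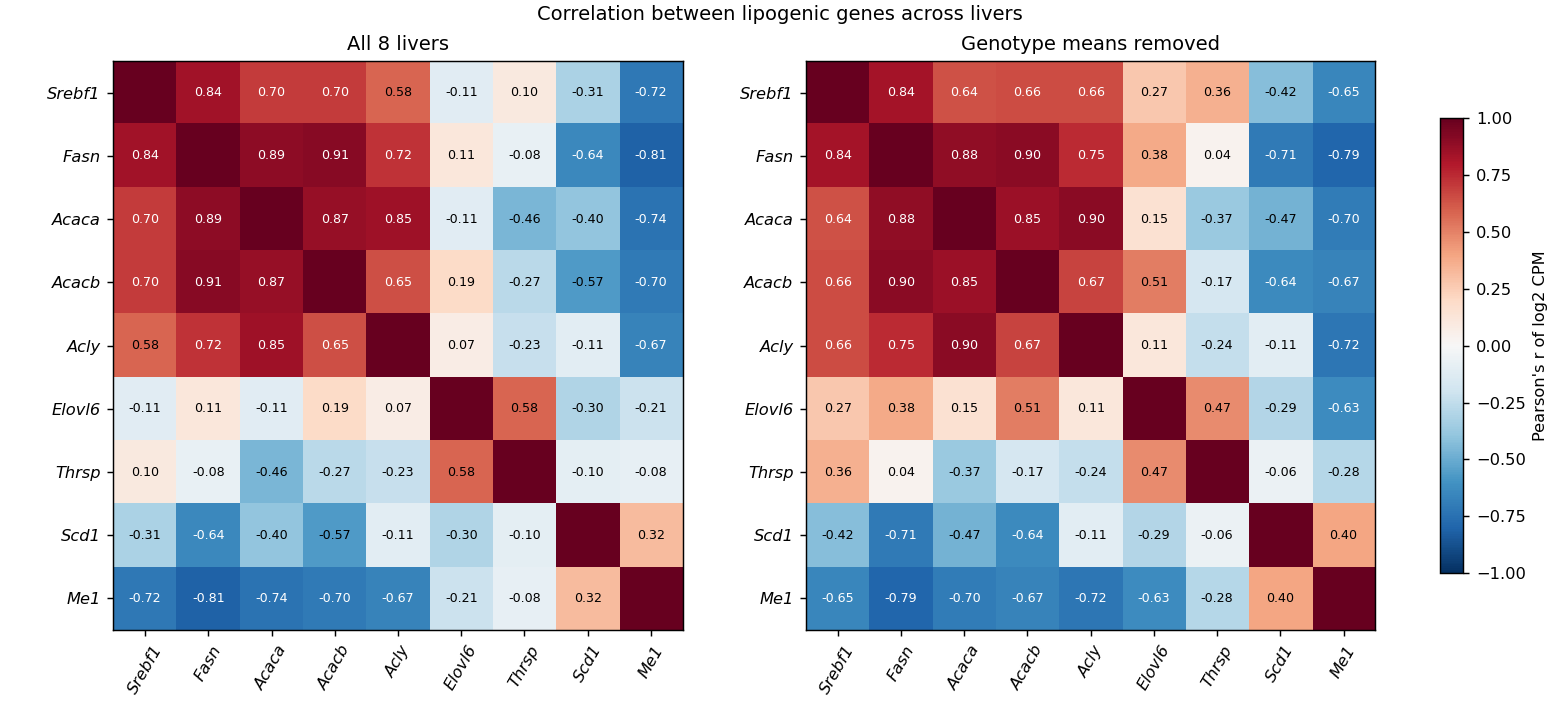
Pearson's *r* of log2 CPM between the 9 tested genes over 8 livers, on the left as measured and on the right with the mean of each genotype removed; red is positive and blue negative. *Srebf1*, *Fasn*, *Acaca*, *Acacb* and *Acly* have *r* between 0.58 and 0.91 with each other (the lowest, *Srebf1* with *Acly*, is 0.28 without LWT liver 4), and *Me1* is negative with each of these 5.

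Of the 36 pairs among the 9 tested members, 6 had an *r* of at least 0.7, a share of 16.7%, where 12.8% of all pairs of tested genes had. The 6 pairs were *Fasn* with *Acacb* (0.91), *Acaca* (0.89), *Srebf1* (0.84) and *Acly* (0.72), and *Acaca* with *Acacb* (0.87) and *Acly* (0.85). The count was 6 also with the genotype means removed and without LWT liver 4, and it was 3 after each library was corrected for GC content and gene length. *r* was below 0 for 20 of the 36 pairs, with a median of −0.091. *Me1* was at −0.81 with *Fasn*, −0.74 with *Acaca* and −0.70 with *Acacb*, and *Scd1* was at −0.64 with *Fasn*. These are correlations over livers that share a library depth and a scaling each, and they are given as a description.

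Several members followed the principal axis of all tested genes, which held 54.1% of the variance of log2 CPM between the livers. Against the place of each liver on that axis, *Acaca* had an *r* of −0.94 and a rho of −0.88 (exact permutation test, adjusted over 9 relations, *P* = 0.0121 and 0.0326). *Acacb* was at −0.90 and −0.90 (exact permutation test, adjusted *P* = 0.0121 and 0.0326), *Fasn* at −0.88 and −0.83 (exact permutation test, adjusted *P* = 0.0121 and 0.0461), and *Me1* at 0.85 and 0.76 (exact permutation test, adjusted *P* = 0.0121 and 0.0662). *Acly* (*r* = −0.72, rho = −0.71) and *Srebf1* (*r* = −0.66, rho = −0.79) had exact permutation adjusted *P* values of 0.0813 and 0.0772 for *r*, and of 0.0864 and 0.0628 for rho. For *Scd1*, *Elovl6* and *Thrsp*, *r* was 0.42, −0.0036 and 0.38 and rho 0.19, −0.048 and 0.33 (exact permutation test, adjusted *P* = 0.401, 0.993 and 0.411 for *r*). LWT livers 1 and 4 lay farthest from the median of the axis, and without them *r* was −0.88 for *Acaca*, −0.98 for *Acacb*, −0.88 for *Fasn* and 0.67 for *Me1*. An absolute *r* of at least 0.7 with this axis was found for 5 of the 9 members and for 52.4% of all tested genes. The axis was computed from the same values, members included, so these *P* values do not set the members apart from other genes. The covariation of the members with the axis removed was not tested. The relations with the axis were examined after the values had been seen.

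The genes whose pattern was most like that of *Srebf1*, among 9975 genes other than the members with a mean log2 CPM of at least 1 and with genotype means removed, were *Sik1* (*r* = 0.98), *Bmp2k* (0.97), *Ints10* (0.97), *Zdhhc17* (0.96) and *Dixdc1* (0.96), over 8 livers. *Sik1*, a kinase gene, was at 5.23, 5.64, 8.01 and 34.1 CPM in LWT livers and at 6.10, 8.54, 3.23 and 3.37 CPM in LΔRbfox2 livers, so that LWT liver 4 stood above the rest as it did for *Srebf1*. Most like *Fasn* were *Mars2* and *Mdc1* (*r* = 0.99 each), *Rbpj* (0.99), *Kank1* (0.98) and *Bcl9* (0.98). *Rbpj* was at 8.86, 5.93, 7.24 and 10.5 CPM in LWT livers and at 6.74, 9.87, 6.34 and 6.50 CPM in LΔRbfox2 livers, highest in the same liver of each genotype as *Fasn*. By the same measure, 0.888% of all tested genes were closer to *Srebf1* than *Fasn* was. For *Acacb*, *Acly* and *Acaca* this share was 6.63%, 6.65% and 7.74%. For *Thrsp*, *Elovl6*, *Scd1* and *Me1* it was 31.4%, 37.6%, 74.3% and 93.7%. Set against *Fasn*, the share of genes closer was 2.71% for *Acacb*, 3.82% for *Acaca*, 8.08% for *Srebf1* and 16.55% for *Acly*. For *Elovl6*, *Thrsp*, *Scd1* and *Me1* that share was 38.5%, 50.4%, 78.9% and 85.2%. An *r* of at least 0.7 with *Fasn*, genotype means kept, was found for 20.7% of genes.

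Of 16 genes that process SREBP-1 or act upstream of *Srebf1*, 0 passed the adjusted threshold, and at an unadjusted *P* under 0.05 there was 1 higher (7.95% of all genes were) and 1 lower (1.83% of all genes were). The lower gene was *Mbtps1*, the protease that makes the initial cut in SREBP precursors, at 29.4, 30.4, 33.9 and 34.8 CPM in LWT livers and at 25.1, 28.0, 24.1 and 22.1 CPM in LΔRbfox2 livers. The genotypes did not overlap for *Mbtps1*, as for 1.23% of all genes in that direction, and its log2 fold change was −0.37 (edgeR, unadjusted *P* = 0.0300, adjusted *P* = 0.504). *Mlx*, the partner of ChREBP, was the higher gene, with a log2 fold change of 0.58 (edgeR, unadjusted *P* = 0.0472, adjusted *P* = 0.504), and its genotypes overlapped. *Insig2*, which retains the SREBP-SCAP complex in the endoplasmic reticulum, was lowest in LWT liver 4, at 151.5 CPM against 178.1 to 372.2 CPM elsewhere. *Insig1* was at 50.5 to 133 CPM and *Rxra* at 124 to 294 CPM. *Mlxipl*, the gene of ChREBP, was at 189, 35.5, 36.4 and 118 CPM in LWT livers and at 52.2, 85.2, 33.2 and 50.5 CPM in LΔRbfox2 livers. When LWT liver 3, LWT liver 4, LΔRbfox2 liver 3 or LΔRbfox2 liver 4 was left out, 0 of the 16 were under an unadjusted *P* of 0.05. The count was 0 also with the replicate block, with GC content and length correction, and with both. Without LΔRbfox2 liver 2, 3 were higher and 2 lower.

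None of 10 genes for acetyl-CoA, citrate and NADPH supply and none of 10 genes for further elongation and desaturation was under an unadjusted *P* of 0.05, or passed the adjusted threshold. The median log2 fold changes of these lists were −0.12 and −0.22. *Slc25a1*, the mitochondrial citrate carrier upstream of *Acly*, was at 67.8 to 97.3 CPM, *Idh1* at 124 to 211, *Acss2* at 24.3 to 51.5 and *Prkaa2* at 28.0 to 40.8 CPM over the 8 livers. *Elovl5* was at 292 to 486 CPM in LWT livers and at 435 to 657 CPM in LΔRbfox2 livers, and the genotypes overlapped for *Elovl2* (445 to 699 CPM over all livers), *Fads1* (156 to 256) and *Fads2* (157 to 299) as well.

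Of 18 genes of glycerolipid synthesis and the lipid droplet, 17 were tested, 0 passed the adjusted threshold, and 2 were lower and 0 higher at an unadjusted *P* under 0.05, where 1.83% of all genes were lower and 7.95% higher. *Lpin2*, a phosphatidate phosphatase, was at 373, 261, 345 and 333 CPM in LWT livers and at 224, 283, 205 and 243 CPM in LΔRbfox2 livers (log2 fold change −0.46; edgeR, unadjusted *P* = 0.0279, adjusted *P* = 0.504). *Plin4*, which coats lipid droplets, was at 27.3, 10.8, 13.1 and 37.5 CPM against 5.69, 19.0, 4.62 and 7.83 CPM (log2 fold change −1.25; edgeR, unadjusted *P* = 0.0347, adjusted *P* = 0.504). Both genes overlapped between genotypes. Neither was under an unadjusted *P* of 0.05 when LWT liver 4, LΔRbfox2 liver 1 or LΔRbfox2 liver 3 was left out. Without LΔRbfox2 liver 2, 3 of the 17 genes were lower at that threshold. *Plin2* ranged from 253 to 734 CPM, *Dgat2* from 179 to 266 CPM and *Gpat4* from 152 to 225 CPM.

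The sister factor *Srebf2* drives cholesterol synthesis and uptake, and 10 genes of that list were set beside *Srebf1*. All 10 were tested, 0 passed the adjusted threshold, 3 were lower (1.83% of all genes) and 0 higher (7.95%) at an unadjusted *P* under 0.05, and the median log2 fold change was −0.59, with 9 of the 10 below 0. *Srebf2* was at 19.5, 16.9, 24.9 and 33.3 CPM in LWT livers and at 13.0, 19.7, 13.8 and 13.8 CPM in LΔRbfox2 livers (log2 fold change −0.65; edgeR, unadjusted *P* = 0.0226, adjusted *P* = 0.504). *Lss*, lanosterol synthase, was at 12.6, 9.86, 12.48 and 18.2 CPM against 5.98, 9.54, 10.3 and 6.72 CPM (log2 fold change −0.71; edgeR, unadjusted *P* = 0.0167, adjusted *P* = 0.504). In 7 of the 10 genes LWT liver 4 was the highest liver. *Hmgcs1* was at 43.7 to 77.8 CPM, *Idi1* at 14.0 to 78.1 CPM and *Cyp51* at 18.8 to 37.7 CPM. Without LWT liver 4, 0 of the 10 were under an unadjusted *P* of 0.05, and the median was −0.29. The count was 0 also without LΔRbfox2 liver 1 and after GC content and length correction, and it was 5 without LΔRbfox2 liver 3.

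**Figure D4:**
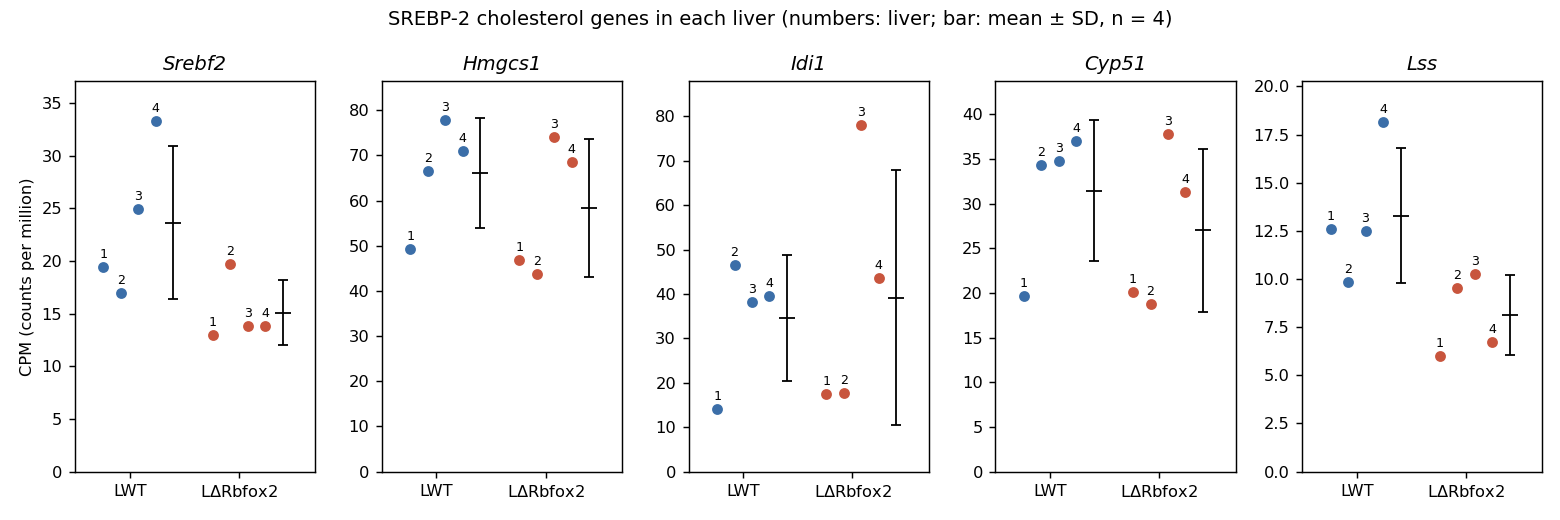
CPM of 5 of the cholesterol genes (vertical axis, from 0) in each of 4 LWT and 4 LΔRbfox2 livers, with liver numbers and mean ± SD. LWT liver 4 is the highest for *Srebf2* (33.3 CPM) and *Lss* (18.2 CPM), and the genotypes overlap for all 5 genes.

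Genes that fasting induces were set beside the members since the livers were taken after a fast. Of 11 such genes, 0 passed the adjusted threshold and 0 were under an unadjusted *P* of 0.05. *Pck1*, of gluconeogenesis, was at 2611, 2112, 2466 and 3716 CPM in LWT livers and at 2515, 2301, 2195 and 1818 CPM in LΔRbfox2 livers. *Cpt1a* was at 248.6 to 661 CPM and *Tat* at 727 to 1673 CPM. LWT liver 4, the highest for *Srebf1*, was the highest of the 8 livers for 2 of the 11 fasting genes (*Pck1* and *Tat*) and the lowest for 4 of them. LΔRbfox2 liver 4, with *Srebf1* at only 10.9 CPM, was likewise the lowest for 4 of the 11. Of 10 clock genes, a list that pools core clock genes with output genes, 0 were under an unadjusted *P* of 0.05. The log2 fold change was below 0 for 9 of them, with a median of −0.55. In other settings 2 were lower at that threshold (DESeq2 test, no filter, without LWT liver 2), and 3 were without LWT liver 3. *Dbp* was at 14.996, 36.1, 18.3 and 81.0 CPM in LWT livers and at 33.0, 29.0, 46.3 and 13.4 CPM in LΔRbfox2 livers. *Tef* was at 141 CPM in LWT liver 4 and at 44.1 to 78.7 CPM elsewhere, *Nr1d1* at 70.6 and 37.7 to 62.3 CPM, and *Nr1d2* at 59.2 and 38.3 to 102 CPM. Without LWT liver 4 the median of the clock genes was −0.22. The part of the clock genes in the values of *Srebf1* in that liver was not tested.

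Markers of other liver cells were measured beside the members. The 6 Kupffer cell markers summed to 55.5 to 97.3 CPM in LWT livers and to 31.1 to 65.9 CPM in LΔRbfox2 livers, and 1 of them, *Clec4f*, was lower without overlap, as 1.23% of all genes were (log2 fold change −0.73; edgeR, unadjusted *P* = 0.0207, adjusted *P* = 0.504). The 6 markers went both ways, with 4 log2 fold changes below 0 and 2 above and a median of −0.18. The 5 sinusoidal endothelial markers summed to 56.6 to 72.8 and 47.3 to 63.1 CPM, and the 5 stellate cell markers to 58.9 to 119 and 75.1 to 119 CPM. The 5 cholangiocyte markers summed to 14.6 to 25.8 CPM in LWT livers and to 16.4 to 60.9 CPM in LΔRbfox2 livers. LWT liver 4 was the lowest LWT liver in the Kupffer, endothelial and stellate sums, at 55.5, 56.6 and 58.9 CPM. Sums weigh the most abundant markers most, and single markers of these lists did not all follow them. By mean log2 CPM, LWT liver 4 was the lowest LWT liver for Kupffer (2.50) and endothelial (3.28) markers. For stellate markers LWT liver 1 was lower, at 2.46 against 2.54. The part of these cells in the members' values was not tested. The 6 adipocyte markers summed to 0.414 CPM in LWT liver 4, between the 0.157 and 2.15 CPM of the other LWT livers.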

How the data were processed

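The authors extracted liver RNA, enriched poly(A) RNA, sequenced 100 bp read pairs and aligned them to GRCm38 (mm10) with TopHat2 2.0.11, after base calling with CASAVA 1.8.4 per the labels. Reads on each gene were counted by the authors with featureCounts, and the deposited values are these raw counts. The featureCounts version, strand setting and treatment of reads that map to several places are not given in the sources used here. Columns were matched to livers by the names in the labels, which also give genotype and replicate number. The 10 members and the other gene lists were chosen with earlier results of these data known. For 45229 of 46078 identifiers, GENCODE M21 (GRCm38) gave a symbol and exon lengths.

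The test was edgeR's (version 4.0.16, under R 4.3.3). Its filterByExpr step (minimum count 10, minimum total 15) left 13856 genes, which were scaled with TMM factors and compared by genotype alone with glmQLFit and glmQLFTest, with Benjamini-Hochberg adjustment over all of them and a threshold of 0.05. Log2 CPM used a prior count of 2. Standard errors and 95% intervals are from limma-voom (limma 3.58.1), and DESeq2 1.42.0 was an alternative test. Total counts of 37482458 to 56177588 set the precision, and 3 counts are taken as the floor, for counting error only. Correlations used log2 CPM of the tested members, so that 8 relations and 36 pairs were computed where the plan had counted *Pnpla3* as well. Permutation tests were exact and two-sided (Python 3.11.15, scipy 1.17.1, numpy 2.4.6). All pairs of libraries within a genotype differed beyond sampling noise (chi-square per degree of freedom of at least 97.8). Named genes are the members, list genes at an unadjusted *P* under 0.05 or without overlap, up to 4 genes per list of highest mean, and the 5 genes most like *Srebf1* and *Fasn* in pattern. *Cfd* and the other markers are named as such. Some genes of the lists enter the counts but are not reported here. Promoter windows are RefSeq's on GRCm38.p6. The scripts for tests over all genes were tried on simulated counts. Alternatives were other size factors, filters and tests, robust estimation, the replicate number as a block, GC content and length correction (lowess, span 0.3), a prior count of 0.5, a variance stabilizing transformation and each liver left out. Removal of livers in pairs, the principal axis and the alternatives for list genes were added after seeing the data.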

Additional observations from a re-analysis of the deposited data

Results flagged for a closer look

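In groups of 4 livers, a value was singled out where its gap to the nearest other liver took a larger part of the range of its group than Dixon's 95% critical value. Over 82 such groups (the 10 members and 31 list genes in each genotype) this held for 8. For independent groups of normal values chance gives about 1 in 20, or 4.1. The groups here share the same 8 livers, and some list genes were named for an unadjusted *P* under 0.05 or no overlap. The 4.1 is thus a rough guide only. Among the members the rule singled out a value in 4 of 20 groups. *Srebf1* reached 55.6 CPM in LWT liver 4, where livers 1 to 3 of that genotype had 13.0 to 19.8 CPM. In LΔRbfox2 liver 2, *Fasn* was at 42.1 CPM against 14.4 to 15.7 CPM and *Acacb* at 41.9 CPM against 7.74 to 11.9 CPM, both compared with the other LΔRbfox2 livers. *Thrsp* was at 17.7 CPM in LΔRbfox2 liver 3 against 5.21 to 6.54 CPM.

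Among the list genes, *Cyp51* was at 19.7 CPM in LWT liver 1 against 34.4 to 37.002 CPM in LWT livers 2 to 4. In LΔRbfox2 liver 2, *Elovl5* was at 657 CPM against 435 to 468 CPM and *Srebf2* at 19.7 CPM against 13.0 to 13.8 CPM. *Tef* was at 44.1 CPM in LΔRbfox2 liver 4 against 67.3 to 71.4 CPM. LWT liver 4 ranked highest in 4 of the 9 tested members and highest or next to highest in 6.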

How the results depend on the processing

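No member passed the adjusted threshold under any of the 20 alternatives (0 members each time), and the number of all genes called was 0 in each but the DESeq2 test, which called 10. At an unadjusted *P* under 0.05 there were 0 to 3 members, the 3 without LΔRbfox2 liver 2 (*Srebf1*, *Fasn* and *Acacb*). *Srebf1* was also under it with upper-quartile factors, no filter, the DESeq2 test, without LWT liver 1 and without LWT liver 2. The median log2 fold change of the members lay between −0.17 and 0.066 with a liver left out. With a liver left out, the log2 fold change ranged from −1.19 to −0.23 for *Srebf1* (lowest without LWT liver 1, nearest to 0 without LWT liver 4). These ranges crossed 0 for *Fasn* (−1.04 to 0.028), *Acacb* (−1.13 to 0.032), *Acly* (−0.17 to 0.14) and *Scd1* (−0.44 to 0.24). The sign of *Scd1* also turned with DESeq2 size factors (−0.0034), upper-quartile factors (−0.037), no filter (−0.032), the DESeq2 test (−0.0034), limma-voom (−0.11), the replicate block (−0.12) and GC content and length correction with that block (−0.081). *Acly* turned with GC content and length correction (0.099, or 0.11 with the block). With both livers of the lowest TMM factors left out, *Acacb* was at 0.39, *Acly* at 0.22 and *Thrsp* at −0.013, and with LWT liver 4 and LΔRbfox2 liver 2 left out *Acly* was at 0.085. None of these values passed the adjusted threshold, and the cause was not tested.

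Same-numbered livers of the genotypes are different animals, and their deviations from the group means correlated at 0.13, −0.61, 0.12 and −0.51, so the numbers were not taken as pairs. With the replicate number as a block, 0 genes and 0 members passed, 335 genes were at an unadjusted *P* under 0.05 in place of 1356, and the log2 fold change of *Srebf1* was −0.70 (edgeR, adjusted *P* = 0.831).

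The number of members correlated with *Srebf1* at an adjusted *P* of at most 0.05 was 0 to 2 with a liver left out (2 without LWT liver 1, *Fasn* and *Acaca*, and 1 without LWT liver 3, *Fasn*), and 0 in the other alternatives. Pairs with an *r* of at least 0.7 numbered 5 to 9 with a liver left out and 3 after GC content and length correction. The *r* of *Srebf1* with *Elovl6* was 0.27 with genotype means removed and −0.24 to 0.087 with a liver left out, and with *Thrsp* Spearman's rho was −0.19 and *r* was −0.43 to 0.60 with a liver left out. With 4 livers a genotype, the 95% intervals of limma-voom ran from −0.066 to 0.86 (*Elovl6*, the narrowest) and from −1.63 to 0.68 (*Acacb*, the widest) on the log2 scale, which limits what these livers can resolve.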

Other observations

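Over all 8 livers the highest value was 5.85 times the lowest for *Thrsp*, 5.41 times for *Acacb*, 5.32 times for *Srebf1*, 4.77 times for *Fasn* and 3.79 times for *Scd1*. The same ratio was 2.43 for *Acaca*, 2.25 for *Me1*, 1.93 for *Acly* and 1.91 for *Elovl6*. The members together took 0.170% to 0.283% of the counts in LWT livers and 0.120% to 0.380% in LΔRbfox2 livers, and *Scd1* set most of that share. *Ciart* and *Per3*, genes of the clock list named after their values were seen, were at 32.6 and 20.3 CPM in LWT liver 4, against 2.01 to 9.22 and 1.30 to 7.18 CPM in the other 7 livers.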
